A study of Oreochromis niloticus with 6 samples.

Results

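Fatty acid-binding proteins are small proteins of the cytosol, each folded as a barrel around a cavity in which a long-chain fatty acid, a bile acid or a related lipid is held. They carry these poorly soluble molecules between the plasma membrane, the endoplasmic reticulum, mitochondria, lipid droplets and the nucleus. The paralogs are named for the tissue in which each was found, and the liver of fish is known for a basic liver type, Fabp10, which placental mammals lack, beside the liver type Fabp1 shared with mammals.

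The genes were taken by product name. A gene of the expression table was a member when its description began with fatty acid-binding protein or with gastrotropin, the name of the bile acid-binding ileal type. The rule found 11 genes among 29528. The table names 8 of them only by a locus number, and the symbols used here for those come from an NCBI gene table, which leaves 2 of them, the gastrotropin gene LOC100706504 and the intestinal type LOC100710255, without a symbol of the family. That table, of the O_niloticus_UMD_NMBU assembly, and the expression table gave the same start and end for all 11 genes, and no other gene of the table overlapped any of them.

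The series compared livers of male Nile tilapia (Oreochromis niloticus) in which elovl6, the elongase of palmitic acid, had been knocked down with antisense RNA, as 3 libraries, with livers of negative control fish labelled WT, as 3 libraries. Both groups ate pellets with 5% palm oil. Liver RNA of 18 fish, 9 per group, was pooled in equal amounts over replicate tanks, and the labels do not say whether each library of a group had its own fish, so p-values measure the spread between libraries, which may be technical. The sources used here do not state the age of the fish or the antisense construct. Libraries held 14341242 to 14973737 counted reads in knockdown livers and 15322360 to 17245179 in the control group. The targeted gene elovl6 had 36.6 to 39.3 FPKM in knockdown livers and 160 to 163 FPKM in the control libraries. FPKM is the read count per kilobase of gene and scaled to the reads of the library, so it can be set side by side between genes.

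The balance between the 2 liver types turned over, with fabp1 10.2-fold higher and fabp10a 2.88-fold lower in the knockdown by the means of 3 libraries each. In the knockdown livers fabp1 was the most abundant member and fabp10a came next, while in the control livers fabp10a made up most of the family and fabp1 was the third. The brain type fabp7a and the gastrotropin gene LOC100706504 were scarce in control livers and higher in the knockdown. The heart type fabp3 was lower in the knockdown and fabp4a was higher. The intestinal members and the adipocyte member had no reads. In such bulk liver RNA, fewer cells of a type and less RNA per cell cannot be told apart.

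Of the 11 genes 6 reached a mean of 1 FPKM over the 6 libraries and were tested, and all 6 passed the threshold of edgeR's quasi-likelihood test (adjusted p under 0.05 over the 11431 genes tested), 4 of them higher and 2 lower in the knockdown. Among all genes tested 78.2% passed, 39.1% as higher and 39.1% as lower, so calls in most members are close to the background of these libraries. A change of at least 2-fold was seen in 4 of the 6, beside 42.9% of all genes tested. The 3 knockdown libraries did not overlap the 3 control libraries in any of the 6, as was the case in 79.5% of all genes tested. Both fabp7a and LOC100706504 had a control mean under 1 FPKM and were tested only because of their level in the knockdown, so the count of 6 describes the genes and is no measure of how the family responded.

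**Figure D1:**
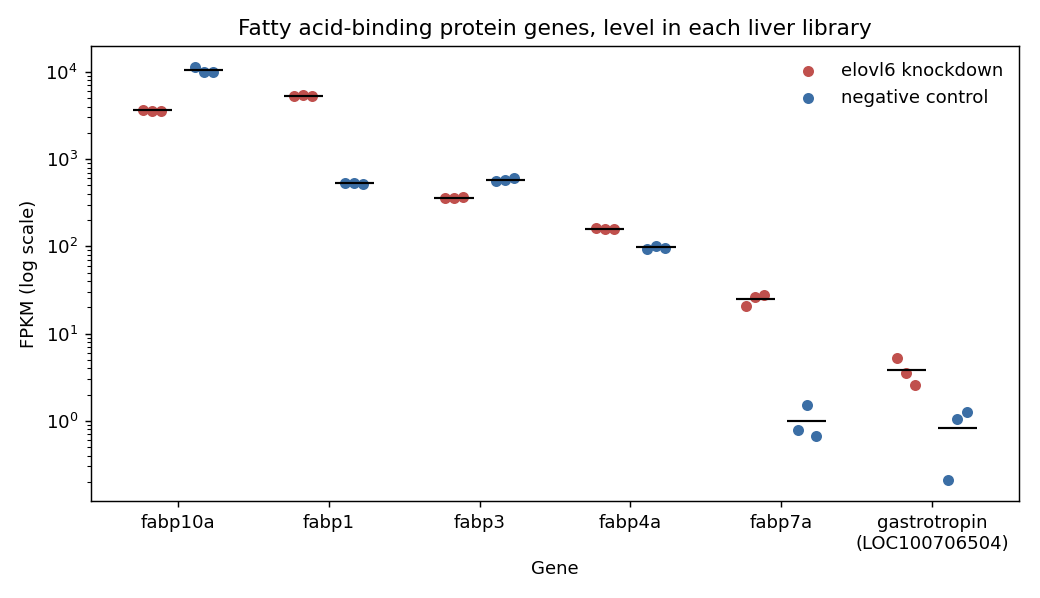
Level of each tested member in FPKM on a log scale, with 1 point per library, elovl6 knockdown in red at the left and negative control in blue at the right of each gene, and the group mean as a black line. fabp1 averaged 5346 FPKM in knockdown livers and 525 FPKM in the control libraries, and fabp10a 3612 FPKM in knockdown livers and 10402 FPKM in the control libraries.

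The liver type gene fabp1 lies on linkage group 12 from 24068662 to 24069539 on the minus strand. In mammals its product is the main fatty acid-binding protein of hepatocytes and also binds fatty acyl-CoA and bile acids. It had 5288, 5445 and 5304 FPKM in knockdown libraries 1 to 3, in that order, against 534, 529 and 512 FPKM in control libraries 1 to 3. All knockdown libraries were about equally high and far above all control libraries. The group means were 5346 ± 86.1 FPKM in knockdown livers and 525 ± 11.5 FPKM in control livers (SD, n = 3 each), a 10.2-fold rise (log2 fold change 3.34, SE 0.04, edgeR adjusted p = 2.21e-29). By mean FPKM it ranked 16 of 29528 genes in the knockdown and 201 in the control livers. Of all genes tested 4.86% had a larger absolute log2 fold change.

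The basic liver type gene fabp10a (LOC100698070) lies on linkage group 11 from 27504998 to 27506131 on the minus strand. In zebrafish its product is a marker of hepatocytes, and the annotation of the expression table gives it lipid binding and bile acid binding. It had 3638, 3599 and 3598 FPKM in knockdown libraries 1 to 3, against 11463, 9914 and 9829 FPKM in control libraries 1 to 3. Control library 1 was above the other control libraries, and every control library was far above every knockdown library. The means were 3612 ± 22.7 FPKM in knockdown livers and 10402 ± 920 FPKM in control livers (SD, n = 3 each), 2.88-fold lower in the knockdown (log2 fold change -1.54, SE 0.04, edgeR adjusted p = 2.27e-20). By mean FPKM it ranked 23 in knockdown and 8 in control livers. A larger absolute log2 fold change was found in 24.9% of all genes tested.

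The balance between the liver types was read within each library, where no scaling between libraries enters. The level of fabp1 divided by that of fabp10a, both in FPKM, was 1.45, 1.51 and 1.47 in knockdown libraries 1 to 3, against 0.0466, 0.0534 and 0.0521 in control libraries 1 to 3. The groups did not overlap, and the mean ratio was 29.2 times as high in the knockdown. The summed FPKM of both genes moved less, at 8957 ± 75.6 in the knockdown and 10928 ± 928 in control livers (SD, n = 3 each).

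In the summed FPKM of the family, fabp1 held 56.2% ± 0.477 in the knockdown and 4.54% ± 0.281 in control livers (SD, n = 3 each). For fabp10a that share came to 38% ± 0.45 in knockdown livers and 89.6% ± 0.894 in control livers. The family as a whole took 0.548%, 0.555% and 0.548% of all reads in knockdown libraries 1 to 3, against 0.743%, 0.657% and 0.653% in control libraries 1 to 3. All knockdown libraries were lower than all control libraries. Without fabp10a the direction turned, and the other members together took 0.345% ± 0.00479 of the reads in knockdown livers and 0.0913% ± 0.00155 in the control livers. That turn rests on fabp1, which alone took 0.297% ± 0.00478 of all reads in knockdown livers and 0.0292% ± 0.000636 in control livers. For fabp3 the share was lower in the knockdown, at 0.0341% against 0.0548%. No test was made of these sums, because the members were chosen with results of these data known.

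**Figure D2:**
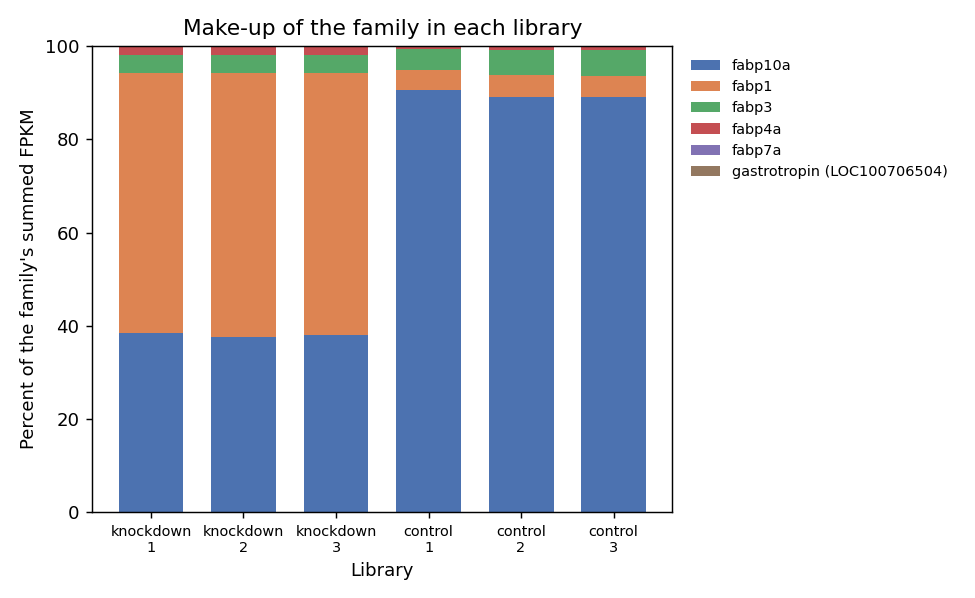
Share of each tested member in the summed FPKM of the family, in percent, with 1 stacked bar per library, knockdown libraries at the left. fabp1 takes 55.8% to 56.8% of the bars of the knockdown libraries and 4.22% to 4.76% of those of the control libraries.

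A pair of members on linkage group 22, described by the expression table as heart types, moved by less than 2-fold and in opposite directions. In mammals the heart type carries fatty acids in muscle, and Fabp4 is the type of adipocytes and macrophages. The NCBI gene table calls the member at 22349898 to 22352975 (plus strand) fabp3 and the member at 20536687 to 20538052 (minus strand) fabp4a, so for the second of them the 2 annotations differ. The genes are 1.81 Mb apart.

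Levels of fabp3 (LOC100698043) were 358, 362 and 367 FPKM in knockdown libraries 1 to 3, against 562, 582 and 603 FPKM in control libraries 1 to 3. Every knockdown library was below every control library. It was 1.61-fold lower in the knockdown (log2 fold change -0.69, SE 0.04, edgeR adjusted p = 2.07e-14). A larger absolute log2 fold change was found in 57.5% of all genes tested.

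Levels of fabp4a (LOC100708154) were 161, 157 and 159 FPKM in knockdown libraries 1 to 3, against 93.8, 102 and 96.4 FPKM in control libraries 1 to 3. Every knockdown library was above every control library. It was 1.63-fold higher in the knockdown (log2 fold change 0.70, SE 0.06, edgeR adjusted p = 5.25e-11). Within libraries, fabp3 divided by fabp4a was 2.28 ± 0.0424 in the knockdown and 5.99 ± 0.275 in control livers (SD, n = 3 each), with no overlap.

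The brain type gene fabp7a (LOC100690908) lies on linkage group 19 from 17055342 to 17056485 on the minus strand. In mammals its product marks radial glia and astrocytes and binds polyunsaturated fatty acids such as docosahexaenoic acid. It had 20.4, 26.6 and 27.4 FPKM in knockdown libraries 1 to 3, against 0.791, 1.52 and 0.674 FPKM in control libraries 1 to 3. These levels rest on 202, 262 and 282 reads in the knockdown libraries and on 9, 16 and 8 reads in the control libraries. The groups were far apart, and the spread within the control libraries was wide for their level, with a coefficient of variation of 46% beside 15.3% in the knockdown.

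The rise of fabp7a was 24.9-fold by mean FPKM (log2 fold change 4.64, SE 0.26, edgeR adjusted p = 2.64e-14), the largest change of the tested members on that scale. Of all genes tested 2.44% had a larger absolute log2 fold change. With limma on log2(FPKM + 1), which shrinks the change of low genes, its log2 fold change was 3.71. In the knockdown livers it remained a minor member, at 0.261% ± 0.0394 of the family's summed FPKM, against 0.00866% ± 0.00431 in control livers (SD, n = 3 each).

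Gastrotropin is the type of the ileum in mammals, where it carries bile acids. The copy on linkage group 2, LOC100706504 (26409678 to 26410871, plus strand), had 66, 44 and 34 reads in knockdown libraries 1 to 3, against 3, 14 and 19 reads in control libraries 1 to 3. Its levels were 5.24, 3.5 and 2.59 FPKM in knockdown livers and 0.207, 1.04 and 1.26 FPKM in the control libraries. The lowest knockdown library was above the highest control library, but relative to the mean the spread within both groups was the widest of the tested members, with coefficients of variation of 35.6% in the knockdown and 66.4% in the control group. It was 4.52-fold higher by mean FPKM (log2 fold change 2.16, SE 0.46, edgeR adjusted p = 0.000174), and with limma on log2(FPKM + 1) its log2 fold change was 1.39.

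**Figure D3:**
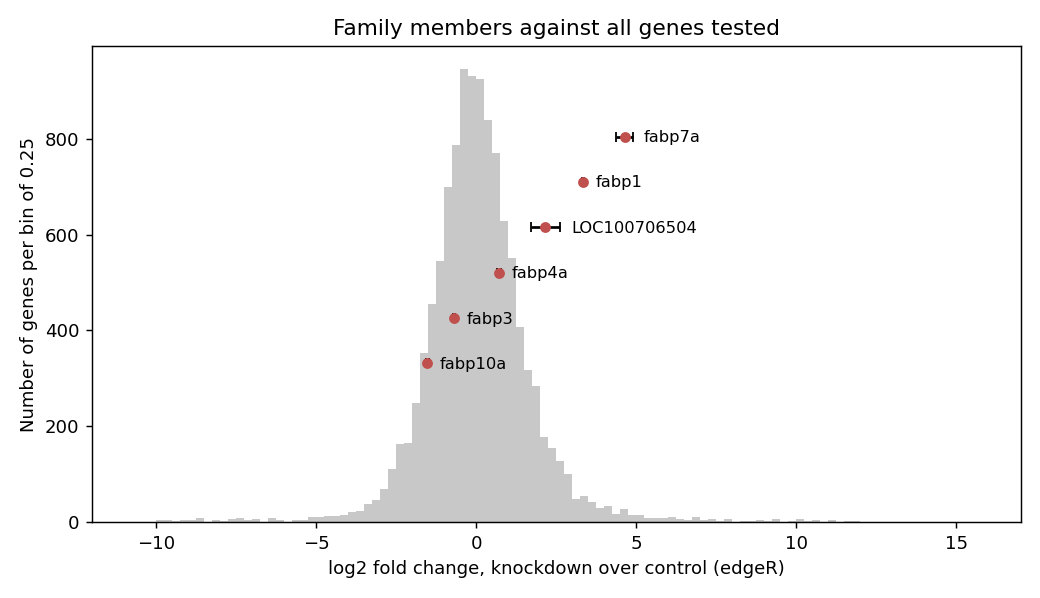
Grey bars count all 11431 genes tested by log2 fold change of knockdown over control (bins of 0.25). Red points are the 6 tested members with 1 SE at each side, drawn at different heights only so that their names can be read. fabp7a, at 4.64, and fabp1, at 3.34, lie in the upper tail, and fabp3, at -0.69, and fabp4a, at 0.70, lie within the bulk.

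The order of levels differed between the groups. In the knockdown livers it was fabp1, fabp10a, fabp3, fabp4a, fabp7a and LOC100706504, and no neighbours in that order overlapped. In the control livers it was fabp10a, fabp3, fabp1, fabp4a, fabp7a and LOC100706504. Here fabp3 lay above fabp1 without overlap, by 562 to 603 FPKM over 512 to 534 FPKM, whereas fabp7a, at 0.994 ± 0.457 FPKM, and LOC100706504, at 0.836 ± 0.555 FPKM, did not differ beyond their spread (SD, n = 3 each).

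The other 5 members were not tested. Among them fabp2 and LOC100710255, of the intestinal type that takes up dietary fat, and fabp4b, described as the adipocyte type, had 0 reads in all 6 libraries. A count of 0 allows up to 3 reads over a group, which would be 0.0595 FPKM for LOC100710255, 0.115 FPKM for fabp2 and 0.118 FPKM for fabp4b in the knockdown, and 0.0529, 0.102 and 0.105 FPKM for the same genes in the control livers. A second gastrotropin gene, fabp6 (LOC100691752), had 0 reads in the knockdown libraries and 3 reads in the control libraries, all in control library 2. A second brain type gene, fabp7, had 0 reads in the knockdown libraries and 2 reads in the control libraries, both in control library 1. These counts do not exceed the limit, and no fold is given. Limits of this kind cover counting error only.

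Of the 12 nearest tested neighbours of the 6 tested members, 1 at each side, 7 changed in the direction opposite to the member, 4 in the same direction and 1 was not called. Among all genes tested 39.1% were called higher and 39.1% lower, so these few counts are no measure of how neighbours and members are linked. Several neighbours also passed the filter only through the group in which they were high. At fabp10a, srsf10a, a splicing factor gene 963 bases away, was higher in the knockdown (log2 fold change 1.89, SE 0.06) and so was myom3, a gene of a muscle sarcomere protein 708 bases away (0.77, SE 0.17), while fabp10a was lower. At fabp7a, usp40, a ubiquitin hydrolase gene 1316 bases away, was lower (-1.28, SE 0.17). Both neighbours of LOC100706504 were higher, as it was, adra1b, 1918 bases away on the same strand (1.89, SE 0.25), and c1qtnf2 (3.84, SE 0.39). With control means of 0.958 and 0.183 FPKM, adra1b and c1qtnf2 were tested only because of their level in the knockdown. At fabp1, mrps27, 19216 bases away, was lower (-1.56, SE 0.21), while smyd1b at the other side moved with fabp1. The gene smyd1b, known in zebrafish for a methyltransferase of muscle, ends 105 bases from fabp1 and lies on the opposite strand.

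Levels of smyd1b were 6.99, 7.67 and 7.38 FPKM in knockdown libraries 1 to 3, against 0.457, 0.573 and 0.65 FPKM in control libraries 1 to 3 (log2 fold change 3.70, SE 0.16, edgeR adjusted p = 9.91e-17). With a control mean of 0.56 FPKM, smyd1b was tested only because of its level in the knockdown. The strand setting of the authors' counting is not given, so reads of fabp1 transcripts that reach into smyd1b could not be told from its own. Their part in the result for smyd1b was not tested. Levels of adra1b were 3.61 ± 0.697 FPKM in knockdown livers and 0.958 ± 0.418 FPKM in control livers, and any part of its reads in the result for LOC100706504 was not tested. The treatment of reads that match several places is not given either, and no sequences of the family were at hand to measure how alike its copies are.

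Genes that act beside the family and marker genes were read as 15 lists, given as counts with no test of a list. Over all 11431 genes tested 4471 rose and 4467 fell, with a median log2 fold change of -0.01. For fatty acid uptake and activation, the steps that bring fatty acids to the binding proteins and turn them into acyl-CoA, 4 of 18 tested genes rose and 12 fell, with a median log2 fold change of -0.62. The gene slc27a2, an acyl-CoA synthetase and transporter of very long chains, had 24.5 ± 0.623 FPKM in knockdown livers and 96.9 ± 4.24 FPKM in control livers (log2 fold change -1.99, SE 0.05). An acyl-CoA ligase of the ACSBG2 type, LOC100707217, fell furthest (-3.85, SE 0.07), while an acyl-CoA ligase 1 gene, LOC100709624, rose to 69.4 ± 1.45 FPKM in the knockdown, against 34.5 ± 1.11 FPKM in control livers.

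Acyl-CoA-binding proteins, which carry the activated form, gave 1 higher and 4 lower of 7 tested genes (median -0.18). The most abundant of them, dbi, had 202 ± 4.28 FPKM in knockdown livers and 196 ± 14.7 FPKM in control livers and was not called (edgeR adjusted p = 0.58), and acbd7 rose (log2 fold change 1.41, SE 0.04). The retinoid carriers of the same barrel fold gave 1 higher and 2 lower of 3 tested genes. Here rbp7b rose to 27.8 ± 0.757 FPKM in the knockdown, against 1.94 ± 0.444 FPKM in control livers (3.81, SE 0.25), and rbp2, the most abundant, fell to 137 ± 4.5 FPKM in the knockdown, against 568 ± 27.2 FPKM in control livers (-2.06, SE 0.05).

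In mammals fatty acid-binding proteins deliver ligands to peroxisome proliferator-activated receptors (PPARs), and several of their genes are targets of these receptors. The expression table places 10 of the 11 members, all but fabp10a, in its PPAR signaling pathway. Of the other genes of that annotation, looked up after results were known, 24 of 61 tested rose and 29 fell (median log2 fold change -0.02). Of 21 lipid-sensing nuclear receptors and coactivators 9 rose and 11 fell (median -0.23). The receptor gene pparab had 5.9 ± 0.0815 FPKM in knockdown livers and 30.7 ± 0.625 FPKM in control livers (-2.39, SE 0.06). The other PPAR alpha gene, ppara, had 16.8 ± 1.54 FPKM in knockdown livers and 12.4 ± 0.251 FPKM in control livers (0.44, SE 0.07). The coactivator-related gene pprc1 had 0.315 ± 0.0926 FPKM in knockdown livers and 9.26 ± 0.455 FPKM in control livers (-4.87, SE 0.16). It was tested only because of its level in the control group. Both pparg (-1.19, SE 0.18) and ppard (-0.56, SE 0.12) fell, and rxrgb rose (1.52, SE 0.11). Of 22 genes known in mammals as PPAR targets 9 rose and 9 fell (median -0.13). Higher were lpl (1.77, SE 0.06) and pdk4 (1.75, SE 0.06), and lower were cpt2 (-2.79, SE 0.15) and hadhab (-1.58, SE 0.06). In the same list cpt1ab, a carnitine palmitoyltransferase 1 gene, also rose (1.43, SE 0.07). Another gene of that type, cpt1a2b, rose further (4.64, SE 0.08) but was not in the list.

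Both fabp10a and gastrotropin bind bile acids. In the list of bile acid synthesis and transport 5 of 17 tested genes rose and 11 fell (median -0.61). The list also caught 3 bile salt-activated lipases, which are digestive enzymes of the pancreas, and without them 5 of 14 rose and 8 fell (median -0.41). Among those that fell were cyp7a1, the rate-limiting enzyme of bile acid synthesis in mammals (log2 fold change -2.08, SE 0.16), cyp7b1 of the alternative pathway (-1.51, SE 0.11), the bile acid receptor gene nr1h4 (-1.37, SE 0.08) and slc51a of a bile acid exporter (-1.32, SE 0.05), all 4 named after their values were seen. Higher were hsd3b7, another enzyme of the synthesis (2.47, SE 0.07), and slco2b1, an organic anion transporter gene (2.02, SE 0.18). So were nr0b2, a repressor induced by the bile acid receptor (1.26, SE 0.12), and nr1h5, a second gene described as bile acid receptor (1.24, SE 0.07). With a control mean of 0.686 FPKM, slco2b1 was tested only because of its level in the knockdown.

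**Figure D4:**
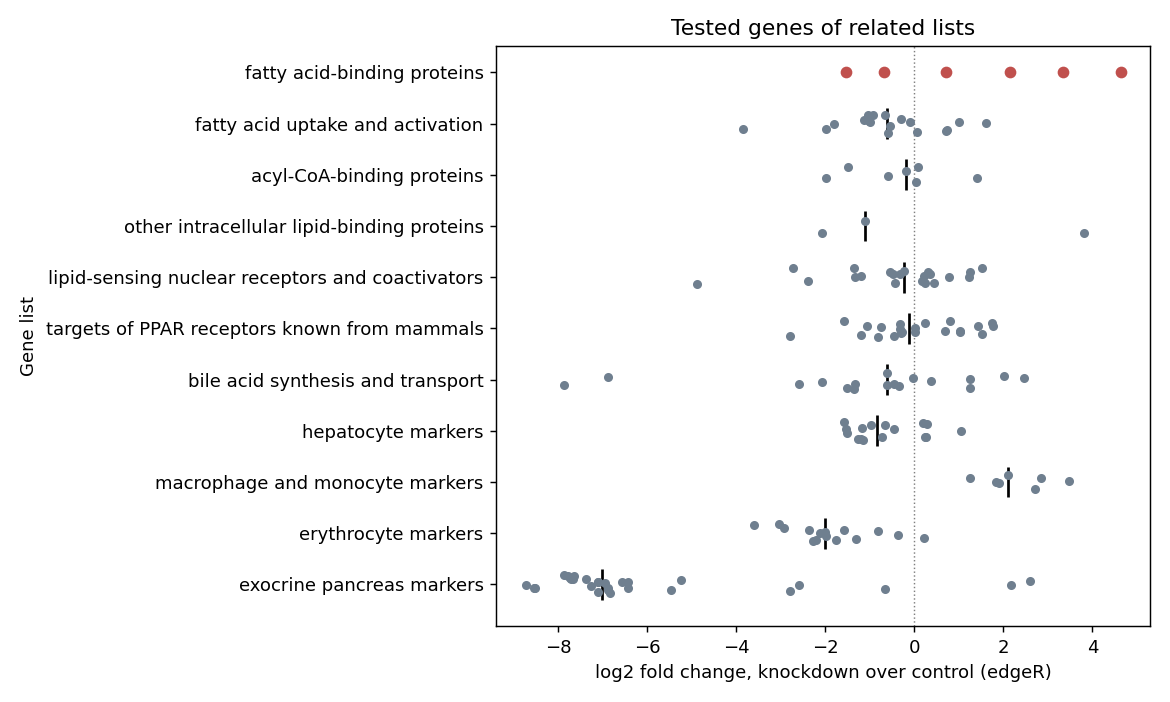
Log2 fold change of knockdown over control for each tested gene, with 1 row per list, the 6 tested fatty acid-binding protein genes in red at the top and a black line at the median of every other list. The tested members reach from -1.54 to 4.64, while exocrine pancreas markers centre on -7.02 and macrophage markers on 2.11.

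Markers of several cell types differed between the groups. Of 16 hepatocyte markers other than fabp10a 5 rose and 11 fell (median log2 fold change -0.85), none of them at 0 reads, with summed levels of 55723 to 55832 FPKM in knockdown livers and 88216 to 90910 FPKM in the control libraries. The change of fabp10a lay near the lower end of this list, in which 1 gene fell further, and no gene of the list rose as far as fabp1. The transthyretin partner rbp4 fell by 1.51 on the log2 scale (SE 0.03), close to fabp10a. Of the hemopexin genes hpxb rose (1.05, SE 0.02), while the more abundant hpxa fell (-0.96, SE 0.02).

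In tilapia, exocrine pancreas tissue is spread within the liver. Of 28 tested exocrine pancreas markers 26 fell and 2 rose, with summed levels of 512 to 659 FPKM in knockdown livers and 48334 to 49111 FPKM in the control libraries. Among all genes tested 39.1% were called lower. Of the 26, pla2g1b, LOC100698021, LOC100691584, LOC100711807 and LOC109195662 had knockdown means under 1 FPKM and were tested only through the control group. The 2 that rose, LOC100697293 and LOC100708903, had control means under 1 FPKM and were tested only through the knockdown. Of 39 markers found, 4 were at 0 reads in all libraries. Erythrocyte markers fell in 14 of 15 tested genes and rose in 1, beside the 39.1% called lower among all genes tested. Their summed levels were 2631 to 2853 FPKM in knockdown livers and 17277 to 17874 FPKM in the control libraries. Of 30 found, 15 were under the filter, 8 of them at 0 reads. The tested gene klf1 had a knockdown mean of 0.556 FPKM and was tested only because of its level in the control group. The part of these pancreas and erythrocyte shifts in the results for fabp1 and fabp10a was not tested. Scaling factors taken without the pancreas genes left the log2 fold change of fabp1 at 3.34 and that of fabp10a at -1.54. That alternative changes only the scaling between libraries, so it cannot show what a change in the mix of cells adds.

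Beside the rises of fabp4a and fabp7a stand those of macrophage markers, of which 7 of 7 tested rose (median log2 fold change 2.11). Among all genes tested 39.1% were called higher. Of the 7, spi1a and marco had control means of 0.65 and 0.962 FPKM and were tested only because of their level in the knockdown. Summed levels of the macrophage list were 126 to 132 FPKM in knockdown livers and 22.5 to 23.6 FPKM in the control libraries. Of 9 found in the table, timd4 alone had 0 reads, and mrc1 was also under the filter. The most abundant, c1qb of the complement cascade, had 85.3 ± 5.52 FPKM in knockdown livers and 12.8 ± 0.632 FPKM in control livers. The part of these markers in the results for fabp4a and fabp7a was not tested.

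Of 26 nervous tissue and glia markers 23 were under the filter and 7 at 0 reads, among them gfap, sox2, sox10 and s100b. Of the 3 tested, glula (log2 fold change 4.46, SE 0.09), a glutamine synthetase gene that hepatocytes also use, and plp1a (1.78, SE 0.10) rose and slc1a3a fell. The summed level of the list was 146 to 149 FPKM in knockdown livers and 115 to 118 FPKM in the control libraries. Most of it was glula in the knockdown, at 87.9 FPKM, and slc1a3a in the control group, at 110 FPKM. Of 9 intestinal markers other than fabp2, 3 were tested and all 3 rose, with summed levels of 184 to 192 FPKM in knockdown livers and 88 to 88.4 FPKM in the control libraries, while cdx4 and alpi.1 had 0 reads. Of 5 adipocyte markers other than members of the family 2 rose, 1 fell, 2 were under the filter and lepb had 0 reads. The gene that fell, adrb3a, had a knockdown mean of 0.35 FPKM and was tested only through the control group. The adipocyte markers summed to 106 to 120 FPKM in the knockdown and 29.1 to 31 FPKM in the control libraries. Most of this was cfd, at 99.2 ± 8.79 FPKM in knockdown livers and 25.5 ± 1.47 FPKM in control livers. Of 25 muscle markers other than fabp3, 22 were under the filter, 14 of them at 0 reads, while 2 rose and 1 fell. Of these, tnnt2a, with a control mean of 0.524 FPKM, was tested only through the knockdown. The gene that fell, casq2, with a knockdown mean of 0.839 FPKM, was tested only through the control group. Mb, the myoglobin gene, made up most of the sum of the muscle list, which was 408.6 to 409.2 FPKM in knockdown livers and 127 to 134 FPKM in the control libraries. Genes often used as housekeeping references also differed, with 6 of 9 tested higher and 3 lower (median log2 fold change 0.79), among them rplp0 (1.09, SE 0.03), higher, and gapdh (-0.57, SE 0.03), lower.

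The profile of fabp1 over the 6 libraries was closest, among tested genes with a symbol, to that of ppdpfa. Profiles were log2(FPKM + 1) values centred on the mean of each gene, and likeness was the root mean square difference, which was 0.0321 for ppdpfa. This gene, described as a pancreatic progenitor differentiation factor, had 3198 ± 56.1 FPKM in knockdown livers and 320 ± 4.18 FPKM in control livers (SD, n = 3 each). Next came the clock gene per3 (0.0511), the lysosomal membrane gene sidt2 (0.0577), fkbp5, a co-chaperone of steroid receptors (0.0713), and rpl22l1, a ribosomal protein relative (0.0796). For fabp7a the nearest were cxcl18b (0.158), igfbp1a (0.184), cpt1a2b, a carnitine palmitoyltransferase 1 gene of mitochondrial fatty acid entry (0.197), trip10b (0.201) and fam169b (0.216). Of these, cpt1a2b had 30.8 ± 0.731 FPKM in knockdown livers and 1.23 ± 0.102 FPKM in control livers, much the levels of fabp7a. With 2 groups that stand far apart, likeness over 6 libraries reflects mainly a similar fold change.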

How the data were processed

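Poly(A) RNA of pooled tilapia livers was read as pairs of 150 bp, per the labels' protocols, in 6 libraries. The submitters' processing notes name cutadapt 1.9 and HISAT, and the sources used here state neither a HISAT version nor the counting program, strand setting or genome build. Per the file headers, the deposited table holds the authors' read counts and the authors' FPKM for 29528 genes. The FPKM equalled count over gene length and library total in 100% of values (relative tolerance 1e-05), so no other scaling had been applied. Linkage groups and symbols come from an NCBI table of O_niloticus_UMD_NMBU, which held 29526 of the genes, with equal start and end in 99.99%.

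Counts were tested with edgeR 4.0.16 (R 4.3.3, quasi-likelihood, TMM scaling, no covariate, both groups) in the 11431 genes whose mean FPKM reached 1, which held 99% of reads. All comparisons are knockdown over control. Calls used a Benjamini-Hochberg adjusted p under 0.05. SE is the log2 fold change divided by the square root of the F statistic. DESeq2 1.42.0 and limma 3.58.1 were alternatives. In simulated counts of 11431 genes the test recovered 50 of 50 genes raised 2-fold and 49 of 50 halved, with 4 false calls. Only a small part of the genes was changed there, and a common dispersion was used for all. The changed genes were better counted than fabp7a and LOC100706504 in control livers. The simulation therefore gives no error rate for these data, in which most genes were called, or for those 2 members. Same-numbered libraries of the groups did not deviate together.

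Members and the 15 lists of related genes and markers were chosen with earlier results of these data known. The rule for naming list genes took the up to 3 most changed per direction among those called with groups that did not overlap, and the most abundant marker. It also took the 5 nearest profiles each for fabp1 and fabp7a. Not every list gene that met the rule is named here. Other genes named were outside the rule and chosen after their values were seen, such as neighbours, markers at 0, dbi, hpxa, ppara, pparg, ppard and cpt1ab.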

Additional observations from a re-analysis of the deposited data

How the results depend on the processing

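The 6 tested members kept their direction and their call in every alternative that could test them, 95 fits in all, with adjusted p of at most 0.00332. These were edgeR with RLE, upper-quartile, library-total or pancreas-free scaling, DESeq2, limma with pseudocounts of 1 and 0.1, no filter, a minimum mean FPKM of 5, a replicate block and each library left out. All were made from the same 6 libraries, so they are no independent support. Of all genes tested 52.4% to 85.2% were called in these settings. Both fabp7a and LOC100706504 passed the main filter only through their level in the knockdown. Log2 fold changes ranged from 3.24 to 3.40 for fabp1, from -1.63 to -1.47 for fabp10a, from -0.79 to -0.63 for fabp3, from 0.61 to 0.76 for fabp4a, from 3.71 to 5.02 for fabp7a and from 1.39 to 2.57 for LOC100706504. A minimum of 5 FPKM left LOC100706504 untested, so 5 members were called. Over all genes it gave 4662 calls among 5469 tested, 85.2%, beside 8938 among 11431, 78.2%, in the main fit. Without a filter 11873 of 22678 genes were called, 52.4% in place of 78.2%, and 6 of 8 members. The log2 ratio of the family's read share, knockdown over control, was -0.31, and -0.43 as a share of summed FPKM. With the exocrine pancreas genes left out of the total it was -0.38. Without fabp10a it reversed to 1.92, a turn that rests on fabp1. With each library left out it ranged from -0.34 to -0.25. Calls over all genes then ranged from 8556 to 8718, 74.5% to 76.7% of those tested, and called members stayed at 6. With the replicate block, 8856 genes were called, 77.5% of those tested, and fabp1 had a log2 fold change of 3.34. Same-numbered libraries correlated at 0.00106, 0.0067 and 0.00174 in their deviations from the group means. Pairs of different number ranged from -0.00868 to 0.00708. No pairing by number was seen, but these values cannot show whether such libraries shared a tank, pool or batch. At 3 to 66 reads per library for LOC100706504 and 8 to 282 for fabp7a, depth limits the precision of both.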
